A study of Mus musculus with 6 samples.

Results

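Jun, Junb, Jund, Fos, Fosb, Fosl2, Egr1, Egr2, Atf3 and Ier2 are listed as AP-1 and immediate-early genes, and are called immediate-early genes below. Transcripts of immediate-early genes can appear within minutes of a stimulus, though Jund is known for steady expression and Fosl2 is induced later than Fos. These 10 genes were given as a list by symbol. Each matched 1 row of the 48709 genes in the table, and all 10 were among the 12940 genes with enough counts to be tested. The libraries came from F4/80+ CD11b+ cells sorted from the peritoneal lavage of untreated C57BL/6 mice aged 6 to 8 weeks. There were 3 libraries from Zeb1 (+/-) mice, heterozygous for Zeb1, and 3 from wild-type mice, and each library was made from 2 pooled mice. The labels describe no Cre driver and no further allele, and the wild-type animals are of the same labelled strain. The question behind the comparison is which transcripts of resting peritoneal macrophages differ between the genotypes.

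JUN, FOS and ATF proteins share a basic region and a leucine zipper, and pair to form the dimers called AP-1. FOS proteins bind DNA only as partners of other such proteins, whereas JUN proteins can also pair with each other. EGR1 and EGR2 are zinc-finger transcription factors that bind GC-rich sites, and IER2 is a small nuclear protein. MAP kinases act on these genes through serum response factor and its ternary complex partners, and through CREB. In macrophages many of the genes respond to bacterial products, growth factors and adhesion, and are also known to be induced while cells are washed out, dissociated or sorted. The labels used here give no time between lavage and lysis.

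Total counts per library ran from 17859872 to 42165006, and levels below are in CPM, counts scaled to a common library size after TMM normalisation. Zeb1 was at 3.85, 3.45 and 3.62 CPM in Zeb1 (+/-) replicates 1, 2 and 3, against 5.44, 7.56 and 7.22 CPM in wild-type replicates 1, 2 and 3. Its log2 fold change was −0.89 ± 0.16 (SE; edgeR adjusted p = 0.0522, 0.00094 to 0.241 over the other settings). All 10 macrophage markers checked were present, and Adgre1, which encodes F4/80, averaged 2618 ± 23.8 CPM in Zeb1 (+/-) and 2186 ± 38.6 CPM in wild-type (SD, n = 3 each). None of the 10 passed by edgeR, where 3 had an unadjusted p under 0.05, as did 14.6% of all tested genes. None passed by limma-voom, and 3 did by DESeq2 (Adgre1, Gata6 and Icam2), which called 2.94% of the genes it tested. These 3 were higher in every Zeb1 (+/-) library than in any wild-type library, while Csf1r was lower in every one, with a log2 fold change of −0.15 (edgeR adjusted p = 0.346). The 10 B cell markers summed to 112.6, 96.9 and 83.2 CPM in Zeb1 (+/-) libraries and to 149.8, 136 and 272 CPM in wild-type libraries. All 9 that could be tested had lower values in every Zeb1 (+/-) library than in any wild-type library. None of these passed by edgeR or limma-voom, and 6 did by DESeq2. Over all tested genes, 19.9% had no overlap between the genotypes in either direction. The lists for T and NK cells, for granulocytes and mast cells, and for mesothelium and fibroblasts each summed to at most 5.46 CPM in any library. A pair of libraries stood apart: small structural RNAs summed to 48.1, 49.9 and 48.5 CPM in the Zeb1 (+/-) libraries whereas wild-type replicates 1, 2 and 3 had 6.68, 11.3 and 46.5 CPM. Fold changes are therefore also given from a split-adjusted fit, with a covariate for these 2 libraries, where the genotype difference rests on the Zeb1 (+/-) libraries against wild-type replicate 3. In bulk samples, fewer cells that express a gene and less of its RNA per cell cannot be told apart.

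Fos was the most abundant of the 10 transcripts per length and Egr2 the least. On the scale of CPM per kilobase of merged exon, Fos averaged 242 ± 85.4 in Zeb1 (+/-) and 243 ± 37.2 in wild-type (SD, n = 3 each, as for the levels that follow), and its mean lay at the 98.7th percentile of 12911 tested genes with an annotated length. Junb averaged 93.9 ± 10.7 in Zeb1 (+/-) and 130.4 ± 15.5 in wild-type, and Ier2 56.7 ± 4.66 in Zeb1 (+/-) and 62.5 ± 6.08 in wild-type. Fos exceeded Junb and Junb exceeded Ier2 in all 6 libraries. Jun averaged 42.004 ± 17.5 in Zeb1 (+/-) and 51.3 ± 8.24 in wild-type, below Ier2 in 5 of 6 libraries and above Jund in all 6. Jund averaged 21.5 ± 5.65 in Zeb1 (+/-) and 29.2 ± 5.22 in wild-type, and Atf3 19.97 ± 10.98 in Zeb1 (+/-) and 22.6 ± 10.2 in wild-type. Jund exceeded Atf3 in 4 of 6 libraries, so their order lies within the spread. Egr1 averaged 13.3 ± 1.52 in Zeb1 (+/-) and 13.02 ± 1.56 in wild-type, Fosl2 11.3 ± 0.396 in Zeb1 (+/-) and 13.2 ± 1.104 in wild-type, and Fosb 10.4 ± 6.90 in Zeb1 (+/-) and 8.35 ± 3.01 in wild-type. Egr1 exceeded Fosl2 in 4 of 6 libraries and Fosl2 exceeded Fosb in 5 of 6, so these 3 genes are close in level on this scale. The merged exons join those of all annotated transcripts, 6243 bases for Fosb and 9680 for Fosl2. Levels per length, their order and their percentiles depend on that choice of length. Egr2 averaged 1.86 ± 0.457 in Zeb1 (+/-) and 2.89 ± 0.561 in wild-type, below Fosb in all 6 libraries and at the 34.7th percentile.

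The share of each paralog within its family overlapped between the genotypes. Of the FOS family per length (Fos, Fosb, Fosl1 and Fosl2), Fos made up 91.7 ± 0.583% in Zeb1 (+/-) and 91.85 ± 0.689% in wild-type (SD, n = 3 each). Fosb made up 2.41, 3.54 and 4.95% in the Zeb1 (+/-) libraries and 3.26, 3.76 and 2.25% in the wild-type libraries, so the groups overlapped. Fosl1 had 1 count in all 6 libraries together. The size of these shares depends on the merged exon lengths used. Of the JUN family, Junb made up 62.3, 64.9 and 54.1% in the Zeb1 (+/-) libraries and 60.3, 63.3 and 61.9% in the wild-type libraries. Zeb1 (+/-) replicate 3 had the lowest Junb share and the highest Jun share, 31.6%. The ratio of summed FOS family to summed JUN family level per length was 1.28, 1.84 and 1.84 in Zeb1 (+/-) replicates 1, 2 and 3, against 1.29, 1.26 and 1.20 in wild-type replicates 1, 2 and 3. Zeb1 (+/-) replicates 2 and 3 were above all wild-type libraries on this ratio, and Zeb1 (+/-) replicate 1 lay among them.

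Sequences upstream of the starts of Fos, Fosb, Jun, Junb and Egr2 are shown because they held matches to elements through which genes of this kind are known to be induced. They are RefSeq windows of GRCm38.p6, the 250 bases before a transcript start, written 5′ to 3′ on the strand of the gene. Windows were searched for 8 of the 10 genes, 5 of them with a start within 500 bases of that in GENCODE. Fos lies at chr12:85473640-85473889 on the plus strand, Fosb at chr7:19310046-19310295, Jun at chr4:95052223-95052472 and Junb at chr8:84978749-84978998, these on the minus strand. Egr2 is at chr10:67537619-67537868 on the plus strand, the start of a RefSeq transcript 2394 bases inside the GENCODE gene. Capitals mark TGACG or its complement CGTCA (the core of a cAMP response element), the CArG box bound by serum response factor, CACCTG or its complement CAGGTG (a ZEB-type E-box), TATAAA on the sense strand, and TGACATCA on either strand (an AP-1-like element).

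Fos: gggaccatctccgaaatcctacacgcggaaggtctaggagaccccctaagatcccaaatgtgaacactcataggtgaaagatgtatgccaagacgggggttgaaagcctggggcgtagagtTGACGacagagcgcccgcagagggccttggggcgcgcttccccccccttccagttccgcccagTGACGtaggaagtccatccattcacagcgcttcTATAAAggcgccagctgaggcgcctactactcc
Fosb: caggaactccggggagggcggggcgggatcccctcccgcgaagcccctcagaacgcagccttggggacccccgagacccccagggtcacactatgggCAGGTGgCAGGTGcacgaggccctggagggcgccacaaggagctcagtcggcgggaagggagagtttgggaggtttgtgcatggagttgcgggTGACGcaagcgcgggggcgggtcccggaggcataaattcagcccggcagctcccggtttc
Jun: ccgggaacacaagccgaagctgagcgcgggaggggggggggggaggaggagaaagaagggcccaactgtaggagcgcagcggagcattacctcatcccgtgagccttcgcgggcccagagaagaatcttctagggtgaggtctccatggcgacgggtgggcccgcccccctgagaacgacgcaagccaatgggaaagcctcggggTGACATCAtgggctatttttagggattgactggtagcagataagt
Junb: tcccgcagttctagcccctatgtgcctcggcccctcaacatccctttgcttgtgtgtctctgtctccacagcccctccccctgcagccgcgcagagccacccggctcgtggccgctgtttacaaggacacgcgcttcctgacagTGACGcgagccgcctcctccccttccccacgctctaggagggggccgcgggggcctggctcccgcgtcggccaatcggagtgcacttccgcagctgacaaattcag
Egr2: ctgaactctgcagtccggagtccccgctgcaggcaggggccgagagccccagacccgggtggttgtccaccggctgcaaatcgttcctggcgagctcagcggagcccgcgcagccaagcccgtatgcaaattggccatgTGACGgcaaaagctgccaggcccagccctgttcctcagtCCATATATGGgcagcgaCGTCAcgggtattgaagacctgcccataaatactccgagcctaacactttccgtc

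TGACG was found in the windows of Fos at −129 and −66, Fosb at −60 and Junb at −106, counting from the transcript start to the first base of the match. Of 32851 windows of that length in RefSeq, 17.8% held it. The Egr2 window held it at −111 and, on the other strand, at −55, and also held a CArG box at −72, which 1.47% of windows did. A further Egr2 window, 2091 bases inside the GENCODE gene, held another CArG box, and the window at the GENCODE start of Egr2 held none of the motifs searched. Jun held TGACATCA at −45, found in 2.93%, and Fos held TATAAA at −33, found in 7.59% on the sense strand. Fosb held CAGGTG at −153 and −146 (CACCTG on either strand is in 17.2% of windows). CACCTG was not in any other of the 12 windows searched, and TGACTCA, which is in 4.46% of windows, was in none of them. The windows for Atf3, Fosl2 and Jund were searched as well, and that of Atf3, which lies 34706 bases inside the GENCODE gene, held TGACG on the other strand at −7. Those of Fosl2 and Jund held none of the motifs, but their starts lie 671 and 1210 bases from that of the GENCODE gene. All 250 bases of the Fosl2 window are exonic in Fosl2 itself. These are matches of letters in these windows only, and no window of Egr1 or Ier2 was searched.

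None of the 10 genes passed the threshold between Zeb1 (+/-) and wild-type macrophages. The log2 fold change was below 0 for 8 of 10, Fos among them at −0.00258, and for 6486 of the 12940 tested genes. By edgeR's quasi-likelihood test with Benjamini-Hochberg adjustment, 0 of 10 passed an adjusted p of 0.05, where 0.587% of all 12940 tested genes did (76, with 20 higher and 56 lower). At an unadjusted p under 0.05 there were 4 of 10, Junb, Egr2, Fosl2 and Jund, all lower, where 14.6% of all tested genes reached it in either direction. By DESeq2 1 of 10 passed (Junb), and by limma-voom 0. For Junb, Egr2 and Fosl2 every Zeb1 (+/-) library was below every wild-type library, where 19.9% of tested genes had no overlap in either direction. Log2 fold changes are given as Zeb1 (+/-) over wild-type, and their median was −0.21 over the 10 genes and −0.000384 over all tested genes. With 1 library left out the median ran from −0.44 to −0.08. It was −0.44 without Zeb1 (+/-) replicate 3, with all 10 below 0, and −0.32 without wild-type replicate 3, with 9 below 0. Leaving out Zeb1 (+/-) replicate 2 gave −0.08 and leaving out wild-type replicate 1 gave −0.14, each with 6 below and 4 above 0. In the split-adjusted fit, 0 of 10 reached an unadjusted p under 0.05, 5 were above and 5 below 0, and the median was −0.05. The part of that split in the lower values was not tested.

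**Figure D1:**
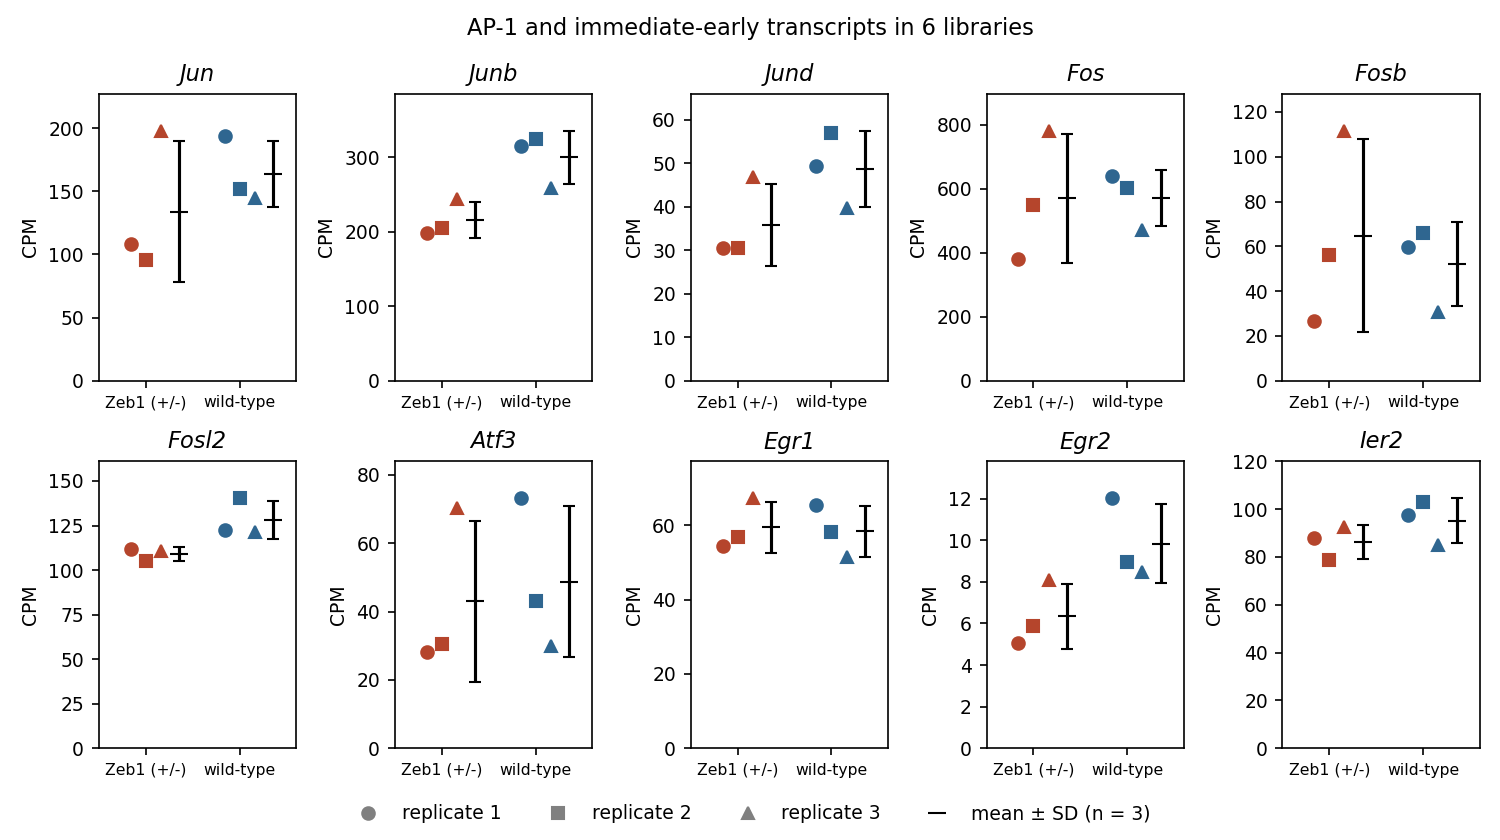
Level of each transcript in CPM (y axis from 0, a scale for each gene) in the 3 Zeb1 (+/-) libraries (red) and the 3 wild-type libraries (blue), with symbols for replicates and the mean ± SD beside them. Junb, Fosl2 and Egr2 have no overlap between genotypes, while for Jun, Fos, Fosb and Egr1 Zeb1 (+/-) replicate 3 is the highest of the 6 libraries.

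Junb (ENSMUSG00000052837.6; chromosome 8, 84974484 to 84978718, minus strand) came closest to the threshold. It was at 198, 205 and 244 CPM in Zeb1 (+/-) replicates 1, 2 and 3, against 316, 325 and 259 CPM in wild-type replicates 1, 2 and 3. All 3 Zeb1 (+/-) values lay below all 3 wild-type values, the nearest pair being Zeb1 (+/-) replicate 3 and wild-type replicate 3. Junb's log2 fold change was −0.47 ± 0.11 (SE; 95% confidence interval −0.72 to −0.23; edgeR adjusted p = 0.0988), which is 0.720-fold. Junb passed by DESeq2 (adjusted p = 0.00162), without a low-count filter in edgeR (adjusted p = 0.00223) and without Zeb1 (+/-) replicate 3 (−0.57; edgeR adjusted p = 0.0489). These fits called 2.94%, 2.47% and 0.972% of the genes they tested. The split-adjusted value was −0.26 (edgeR adjusted p = 0.621), and over all settings Junb's adjusted p ran from 0.00162 to 0.621. A stretch of 173 exonic bases of Junb is shared with Prdx2 on the opposite strand, and whether counting used strand was not given in the sources used here. Prdx2 was at 101.5, 115 and 112 CPM in Zeb1 (+/-) libraries, against 105, 100.9 and 104 CPM in wild-type libraries, so its groups overlapped.

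Jun (ENSMUSG00000052684.4; chromosome 4, 95049034 to 95052222, minus strand), the founding AP-1 member, is an intronless gene. It was at 108, 95.8 and 198 CPM in Zeb1 (+/-) replicates 1, 2 and 3, against 194, 152 and 145 CPM in wild-type replicates 1, 2 and 3. Zeb1 (+/-) replicates 1 and 2 were below every wild-type library and Zeb1 (+/-) replicate 3 was above every one, so the groups overlapped. Its log2 fold change was −0.29 ± 0.24 (SE; 95% confidence interval −0.84 to 0.26; edgeR adjusted p = 0.618), and −0.11 in the split-adjusted fit. It was −0.68 without Zeb1 (+/-) replicate 3, −0.09 without Zeb1 (+/-) replicate 2 and −0.15 without either Zeb1 (+/-) replicate 1 or wild-type replicate 1. Jund (ENSMUSG00000071076.6; chromosome 8, 70698949 to 70700616, plus strand), a JUN paralog known for steady expression and growth restraint, was at 30.4, 30.4 and 46.7 CPM in Zeb1 (+/-), against 49.4, 57.1 and 39.7 CPM in wild-type. Its groups overlapped through Zeb1 (+/-) replicate 3 and wild-type replicate 3. Its log2 fold change was −0.44 ± 0.18 (SE; 95% confidence interval −0.85 to −0.03; edgeR adjusted p = 0.310), and −0.14 in the split-adjusted fit. Jund shares 877 exonic bases with Gm11175 and Jun 232 with Junos, antisense genes that had 80 and 41 counts over the 6 libraries.

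Fos (ENSMUSG00000021250.13; chromosome 12, 85473890 to 85477273, plus strand) is induced transiently and its mRNA decays fast. It was at 380, 549 and 780 CPM in Zeb1 (+/-) replicates 1, 2 and 3, against 639, 602 and 472 CPM in wild-type replicates 1, 2 and 3. The lowest and the highest of the 6 values were both from Zeb1 (+/-) libraries, and the wild-type values lay between them. The means were 569.8 ± 201 CPM in Zeb1 (+/-) and 571 ± 87.6 CPM in wild-type, and the log2 fold change was −0.00258 (95% confidence interval −0.50 to 0.50; edgeR adjusted p = 0.997). That interval spans 0.705-fold to 1.41-fold.

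Fosb (ENSMUSG00000003545.3; chromosome 7, 19302696 to 19310051, minus strand), a FOS paralog, was at 26.7, 55.9 and 111.5 CPM in Zeb1 (+/-) replicates 1, 2 and 3, against 59.7, 65.9 and 30.7 CPM in wild-type replicates 1, 2 and 3. Its libraries spanned 4.17-fold, the widest of the 10 genes, and the groups overlapped. The fitted log2 fold change was 0.32 ± 0.44 (SE; 95% confidence interval −0.67 to 1.30; edgeR adjusted p = 0.779), and 1.09 in the split-adjusted fit. Leaving out Zeb1 (+/-) replicate 3 gave −0.31, leaving out wild-type replicate 3 gave 0.06, and leaving out Zeb1 (+/-) replicate 1 gave 0.68. Fosl2 (ENSMUSG00000029135.10; chromosome 5, 32135801 to 32157842, plus strand), a FOS-related antigen induced later than Fos, had the smallest spread within genotypes. It was at 112, 105 and 110.6 CPM in Zeb1 (+/-), against 122, 140.2 and 121 CPM in wild-type, with no overlap. This gave a log2 fold change of −0.23 ± 0.07 (SE; 95% confidence interval −0.40 to −0.06; edgeR adjusted p = 0.217), and −0.15 in the split-adjusted fit.

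Atf3 (ENSMUSG00000026628.13; chromosome 1, 191170296 to 191218039, minus strand), a stress-induced AP-1 partner that restrains inflammatory genes in macrophages, was at 28.3, 30.5 and 70.3 CPM in Zeb1 (+/-) replicates 1, 2 and 3. In wild-type replicates 1, 2 and 3 it was at 73.1, 43.2 and 30.1 CPM. Zeb1 (+/-) replicate 3 and wild-type replicate 1 stood above the other 4 libraries. The log2 fold change was −0.18 ± 0.38 (SE; 95% confidence interval −1.04 to 0.68; edgeR adjusted p = 0.853), and 0.53 in the split-adjusted fit. Leaving out Zeb1 (+/-) replicate 3 gave −0.74, and leaving out wild-type replicate 1 gave 0.23.

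Egr1 (ENSMUSG00000038418.7; chromosome 18, 34859823 to 34864984, plus strand) lies on the chromosome of Zeb1. It was at 54.3, 57.0 and 67.2 CPM in Zeb1 (+/-) replicates 1, 2 and 3, against 65.4, 58.3 and 51.4 CPM in wild-type replicates 1, 2 and 3, so the groups overlapped. Egr1 had a log2 fold change of 0.03 ± 0.11 (SE; edgeR adjusted p = 0.926), with a 95% confidence interval from 0.863-fold to 1.20-fold. Egr2 (ENSMUSG00000037868.15; chromosome 10, 67535475 to 67542188, plus strand), a paralog of Egr1 that shapes myelin formation and immune cell activation, was the lowest of the 10 per length. It was at 5.08, 5.86 and 8.07 CPM in Zeb1 (+/-), against 12.02, 8.98 and 8.50 CPM in wild-type, and the groups did not overlap. The gap between the groups was small, since Zeb1 (+/-) replicate 3 and wild-type replicate 3 were nearly level. Its log2 fold change of −0.63 ± 0.19 was the furthest from 0 of the 10 (SE; 95% confidence interval −1.06 to −0.20; edgeR adjusted p = 0.191). Split-adjusted it was −0.41, and without a low-count filter Egr2 passed (edgeR adjusted p = 0.0202), as did Jund (edgeR adjusted p = 0.0412), while over all settings the adjusted p reached 0.73 for Egr2 and 0.89 for Jund.

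Ier2 (ENSMUSG00000053560.4; chromosome 8, 84661331 to 84662852, minus strand) was among the steadier genes. It was at 87.8, 78.6 and 92.5 CPM in Zeb1 (+/-), against 97.6, 103 and 84.9 CPM in wild-type, and the groups overlapped. The fitted log2 fold change was −0.14 ± 0.09 (SE; 95% confidence interval −0.35 to 0.06; edgeR adjusted p = 0.497), and 0.02 in the split-adjusted fit.

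**Figure D2:**
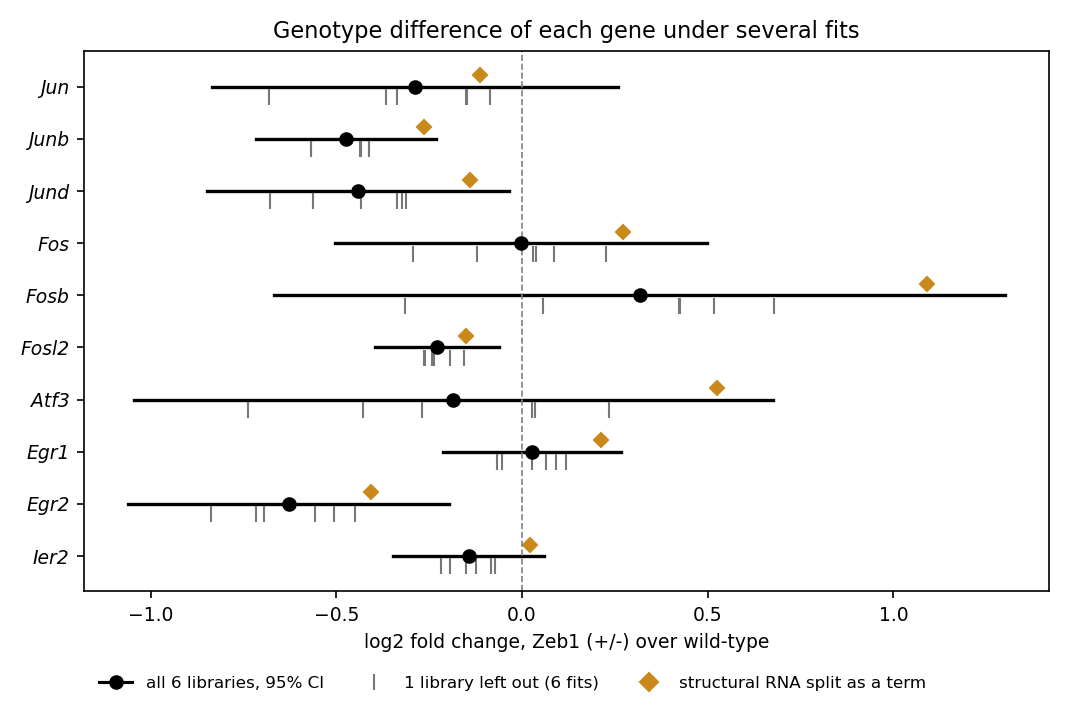
Log2 fold change of each gene, Zeb1 (+/-) over wild-type (x axis), from all 6 libraries with its 95% confidence interval (black), from the 6 fits with 1 library left out (grey ticks) and from the split-adjusted fit (orange diamonds). The interval excludes 0 for Junb, Jund, Fosl2 and Egr2, whose adjusted p did not pass, and the diamonds of Fos, Atf3 and Ier2 lie on the other side of 0 from the black points.

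Libraries of the same genotype differed more for most of these genes than for most of the transcriptome. The pooled within-genotype SD of log2 (CPM + 0.5) was 0.83 for Fosb, at the 99.7th percentile of the 12940 tested genes, and 0.68 for Atf3, at the 99.6th. Jun had 0.43 and Fos 0.40, at the 97.4th and 96.8th percentiles. Jund and Egr2 were at the 92.1st and 90.1st percentiles. The other 4 were nearer to the middle, with Junb at the 68.9th, Egr1 at the 68.1st, Ier2 at the 55.3rd and Fosl2 at the 32.0th. The 95% confidence intervals of Fosb and Atf3 were the widest of the 10. These percentiles describe the 6 libraries, and the genes are not independent of each other.

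**Figure D3:**
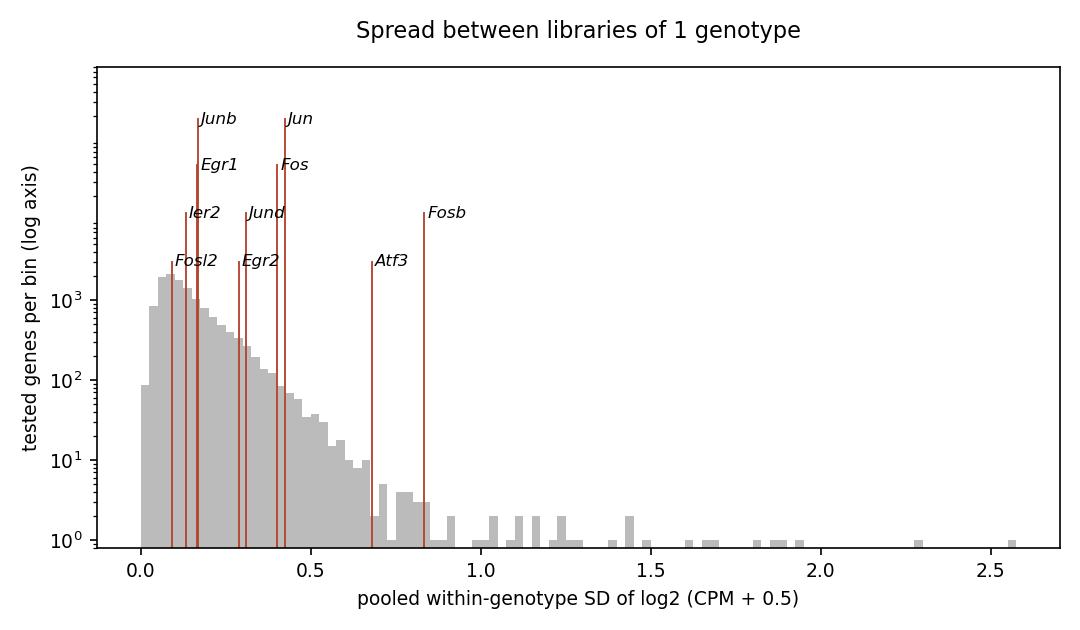
Pooled SD of log2 (CPM + 0.5) between libraries of 1 genotype (x axis) for all 12940 tested genes (grey, log axis of counts), with the 10 genes as red lines. Fosb and Atf3 stand at the 99.7th and 99.6th percentiles, while Fosl2 lies at the 32.0th.

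The deviations of many of the 10 genes ran together across libraries, but not those of every pair. Expressed as log2 CPM minus the mean of the gene over 6 libraries, the median over the 10 genes was −0.42, −0.25 and 0.19 in Zeb1 (+/-) replicates 1, 2 and 3. It was 0.23, 0.19 and −0.07 in wild-type replicates 1, 2 and 3. Zeb1 (+/-) replicate 1 had 0 of the 10 genes above their mean, Zeb1 (+/-) replicate 3 had 8, and wild-type replicate 1 had all 10. The highest library was Zeb1 (+/-) replicate 3 for 4 genes (Jun, Fos, Fosb and Egr1), wild-type replicate 2 for 4 (Junb, Jund, Fosl2 and Ier2) and wild-type replicate 1 for Egr2 and Atf3. Over all tested genes, Zeb1 (+/-) replicate 3 was the highest for 12.9%, wild-type replicate 2 for 20.4% and wild-type replicate 1 for 14.4%. The lowest library was Zeb1 (+/-) replicate 1 for 5 genes and Zeb1 (+/-) replicate 2 for 4, beside 17.5% and 16.7% of all tested genes. Pearson's r between pairs of the 10 genes over the 6 libraries had a median of 0.70. It was highest for Fos with Fosb, at 0.97, followed by Egr1 with Atf3 and by Junb with Jund, and lowest for Fosl2 with Egr1, at −0.04. Fosl2 also had a low r with Fosb (0.03), Fos (0.11) and Atf3 (0.18), against 0.86 with Junb. These values rest on 6 libraries that share their depth and sorting across genes, and are descriptions.

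**Figure D4:**
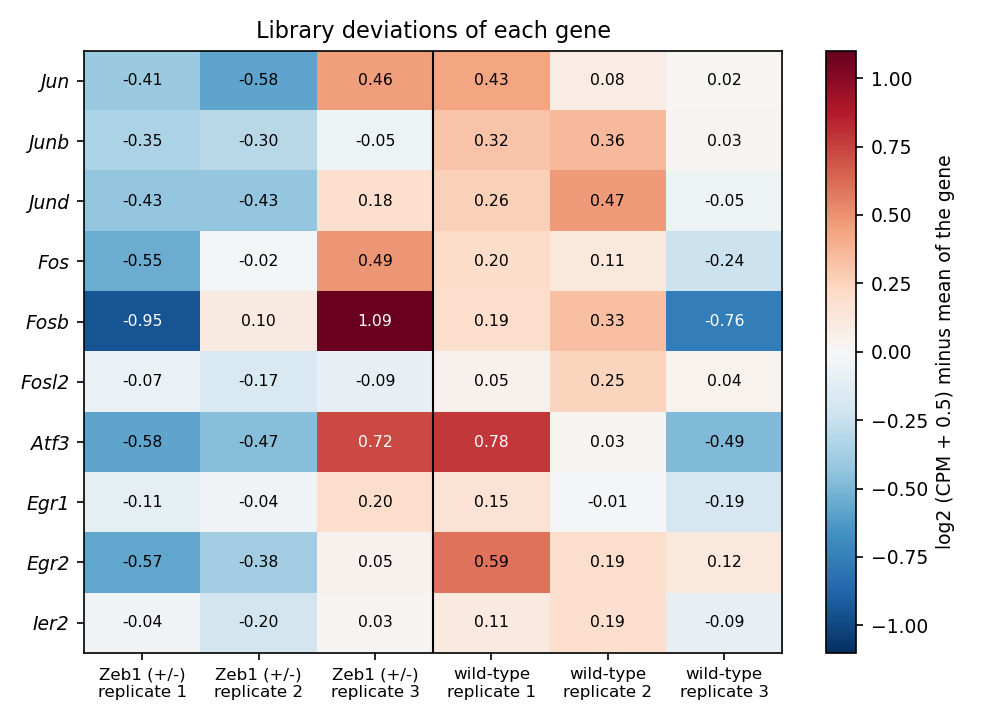
Deviation of each gene (rows) in each library (columns, Zeb1 (+/-) left of the line and wild-type right of it), as log2 (CPM + 0.5) minus the gene's mean over 6 libraries, red above and blue below. Zeb1 (+/-) replicates 1, 2 and 3 are above the mean for 0, 1 and 8 of 10 genes.

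Heat shock transcripts, whose chaperone products protect proteins under stress, were highest in Zeb1 (+/-) replicate 3 and wild-type replicate 1. The 12 heat shock genes summed to 3238, 3710 and 5095 CPM in Zeb1 (+/-) replicates 1, 2 and 3, while wild-type replicates 1, 2 and 3 had 4976, 3190 and 2963 CPM. The 10 immediate-early genes summed to 1031, 1213 and 1729 CPM in Zeb1 (+/-) and to 1628, 1556 and 1243 CPM in wild-type. Both sums were highest in Zeb1 (+/-) replicate 3. Fos alone made up 780 of the 1729 CPM there, and Hspa8 alone 2768 of the 5095 CPM. By the median deviation over the 10 genes, which does not weight them by level, wild-type replicate 1 came first with 0.23, against 0.19 in Zeb1 (+/-) replicate 3. The highest library was Zeb1 (+/-) replicate 3 for 6 heat shock genes and wild-type replicate 1 for the other 6. Hspa8, a constitutive chaperone, was at 1474, 1927 and 2768 CPM in Zeb1 (+/-), against 2687, 1637 and 1430 CPM in wild-type. None of the 12 passed by edgeR, DESeq2 or limma-voom. By edgeR 2 had an unadjusted p under 0.05, both higher, beside 14.6% of all tested genes in either direction. The log2 fold change was above 0 for 6 and below 0 for 6, with a median of 0.03. Hspd1, a mitochondrial chaperonin, had the smallest p of the 12, with a log2 fold change of 0.34 (edgeR adjusted p = 0.265). Hsp90ab1 and Hsp90aa1, cytosolic chaperones, had log2 fold changes of 0.20 and 0.18. Those furthest from 0 were Hspa1a and Hspa1b, at −0.92 ± 0.56 and −0.83 ± 0.70 (SE), with overlapping groups. B cell markers did not follow this order, being highest in wild-type replicate 3 with 272 CPM. The part of cell handling, of heat shock or of cells other than macrophages in the immediate-early values was not tested.

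**Figure D5:**
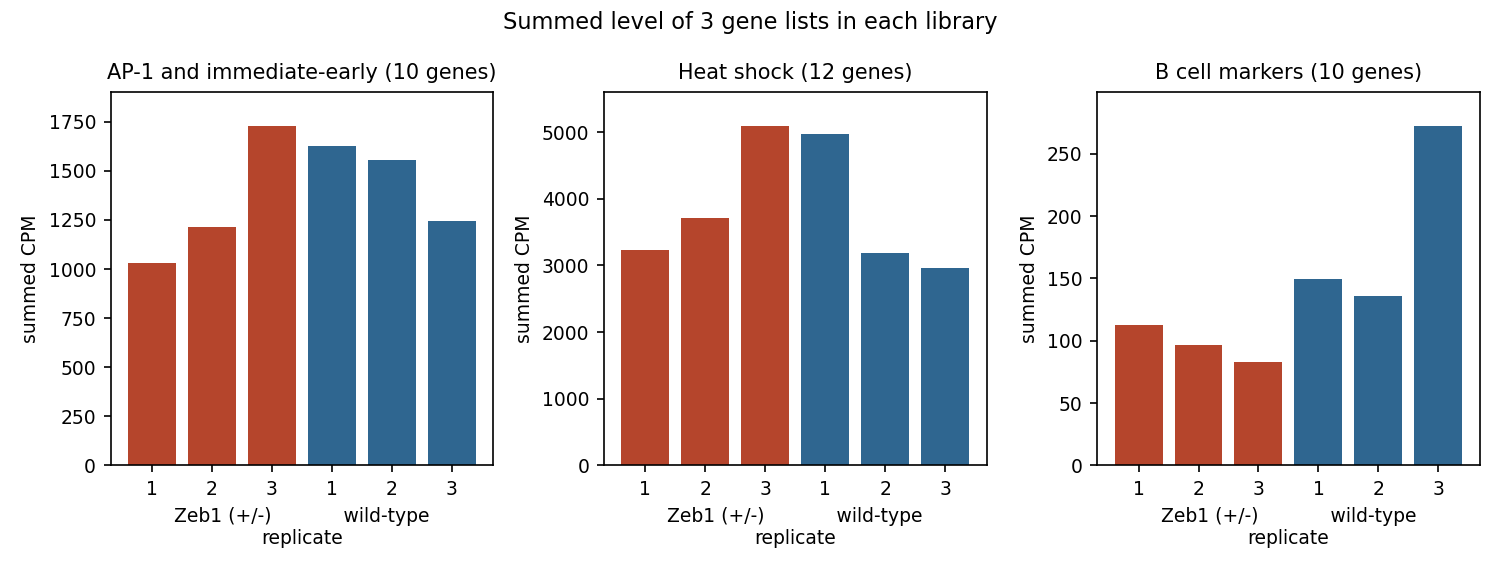
Summed CPM (bars from 0) of the 10 AP-1 and immediate-early genes, 12 heat shock genes and 10 B cell markers in the 3 Zeb1 (+/-) libraries (red) and the 3 wild-type libraries (blue). Immediate-early and heat shock sums peak in Zeb1 (+/-) replicate 3, at 1729 and 5095 CPM, and the B cell sum peaks in wild-type replicate 3, at 272 CPM.

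On the other AP-1, immediate-early, upstream, feedback, target and heat shock lists, 3 of 98 tested genes passed by edgeR. Over all tested genes 0.587% passed, and 14.6% had an unadjusted p under 0.05 in either direction. Among 12 further AP-1 family members and dimer partners, 10 were tested and none passed (edgeR; 2 lower at an unadjusted p under 0.05; Batf3 and Maf passed by DESeq2 and none by limma-voom), with a median log2 fold change of −0.15. Batf3, a BATF factor needed by a dendritic cell lineage, had the smallest p, at 7.70, 7.25 and 7.74 CPM in Zeb1 (+/-) against 12.6, 12.8 and 8.98 CPM in wild-type (log2 fold change −0.61, edgeR adjusted p = 0.102). Maf, a large MAF factor of macrophages, had a log2 fold change of −0.45 (edgeR adjusted p = 0.198), and Mafg, a small MAF, had 0.03. Among 35 other immediate-early genes, 33 were tested and none passed (edgeR; 1 higher and 5 lower at an unadjusted p under 0.05; Nfkbiz passed by DESeq2 and none by limma-voom). Of these 33, 29 had a log2 fold change below 0 and 4 above, where 6486 of all 12940 tested genes were below 0. The median of the 33 was −0.18, beside −0.000384 over all tested genes. Whether that median held with 1 library left out or in the split-adjusted fit was not tested. Nfkbiz, a nuclear regulator of NF-kB targets, had the smallest p, at 44.2, 53.4 and 56.4 CPM in Zeb1 (+/-) against 65.3, 65.6 and 67.6 CPM in wild-type (log2 fold change −0.36, edgeR adjusted p = 0.125). Dusp1, the phosphatase that switches off MAP kinases, Zfp36, which promotes decay of inflammatory mRNAs, and Mcl1, a survival factor, had log2 fold changes of −0.06, −0.25 and −0.07. Zeb1 (+/-) replicate 1 was the lowest library for 20 of the 33 genes, beside 17.5% of all tested genes. Wild-type replicate 1 was the highest for 14 of them, beside 14.4% of all tested genes.

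Of the upstream kinases and factors and the feedback repressors, Nab2 alone passed the threshold. All 22 listed MAP kinase, serum response factor and CREB genes were tested and none passed by edgeR, DESeq2 or limma-voom. By edgeR 3 of the 22 were lower at an unadjusted p under 0.05, beside 14.6% of all tested genes in either direction. The median log2 fold change of the 22 was −0.09. Elk3, a ternary complex factor, had the smallest p (log2 fold change −0.28, edgeR adjusted p = 0.140). Mapk14 and Rps6ka3, which encode kinases of these cascades, had log2 fold changes of −0.08 and −0.000104. Of 10 tested feedback repressors 1 fell and 0 rose, with a median of 0.04. Nab2, a co-repressor that binds EGR proteins, fell to 21.7, 22.7 and 25.7 CPM in Zeb1 (+/-), against 33.3, 30.6 and 33.5 CPM in wild-type. All Zeb1 (+/-) values were below all wild-type values, and the log2 fold change was −0.47 (edgeR adjusted p = 0.0482). Its split-adjusted value was −0.52 (edgeR adjusted p = 0.205), and over all settings the adjusted p ran from 0.00195 to 0.241. Of the 6 fits with 1 library left out, only that without Zeb1 (+/-) replicate 3 called Nab2, with log2 fold changes from −0.54 to −0.42. Nab2 shares 40 exonic bases with Stat6, 151 with Nemp1 and 1050 with Gm16229 on the opposite strand. Stat6 had 47285 counts over the 6 libraries against 4797 for Nab2, and a log2 fold change of −0.14. Nab1, a paralog of Nab2, had a log2 fold change of −0.06, and Dusp6 and Spred1, which restrain ERK signalling, had 0.09 and 0.01.

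Of 11 tested genes described elsewhere as AP-1 targets, 1 fell (Mmp9), 1 rose (Spp1) and 9 did not pass by edgeR, and DESeq2 called the same pair but limma-voom only Mmp9. Over the 11 genes the median log2 fold change was −0.43, beside −0.000384 for all tested genes, with 9 below and 2 above 0. That median is the value of Cxcl2, which had an SE of 0.43 and overlapping groups. Of the 9 below 0, Vegfa, Il1b and Tnf averaged at most 3.96 CPM in either genotype. The list was chosen with earlier results known, and whether its median held with 1 library left out was not tested. Mmp9, a secreted gelatinase, fell to 16.2, 18.02 and 22.6 CPM in Zeb1 (+/-), against 32.5, 35.6 and 35.9 CPM in wild-type, with no overlap (log2 fold change −0.86, edgeR adjusted p = 0.0186). Spp1, the secreted phosphoprotein osteopontin, rose to 5.47, 2.81 and 10.2 CPM in Zeb1 (+/-), against 1.17, 0.817 and 1.01 CPM in wild-type (log2 fold change 2.61, edgeR adjusted p = 0.0482). Without single libraries, the Mmp9 call was lost when replicate 2 of either genotype was left out, and Spp1 was called only without Zeb1 (+/-) replicate 2 or replicate 3. Their split-adjusted log2 fold changes were −0.91 and 2.60, and neither passed (edgeR adjusted p = 0.0992 and 0.391). Spp1 was called in 6 of 14 settings and Mmp9 in 11. Over all settings the adjusted p ran from 1.5e-08 to 0.107 for Mmp9 and from 3.96e-09 to 0.391 for Spp1. Cxcl2, a neutrophil chemokine, was at 82.5, 139.9 and 342 CPM in Zeb1 (+/-) and 332, 198 and 231 CPM in wild-type (log2 fold change −0.43, edgeR adjusted p = 0.681). Cd44, a hyaluronan receptor, and Plaur, the urokinase receptor, had log2 fold changes of −0.03 and −0.01.

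The genes most alike in pattern to the mean log2 CPM of the 10 genes, among 8319 others with a mean of at least 10 CPM, were Mcl1, Rgs3, Tpst2, Samd1, Elof1 and Ap3d1. Pearson's r over the 6 libraries ran from 0.998 for Mcl1 to 0.987 for Ap3d1. Mcl1 was at 669, 689.9 and 774 CPM in Zeb1 (+/-) replicates 1, 2 and 3, and at 779, 756 and 696 CPM in wild-type replicates 1, 2 and 3. Among the other immediate-early genes, Klf4, a zinc-finger factor of macrophages, had an r of 0.98, Zfp36 one of 0.97 and Per1, a clock gene, one of −0.46. With 6 points per gene and this many genes, high values are common, and the order is a description.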

How the data were processed

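RNA was sequenced from 3 Zeb1 (+/-) and 3 wild-type libraries made with a stranded TruSeq mRNA kit, per the labels. The values are the authors' estimated counts, 1 row per gene. STAR, RSEM, edgeR and the build GRCm38 are named, without roles or versions, per the submitters' processing notes. All values were whole numbers, so that no rounding was needed. Columns were mapped by the identifier in each description.

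The counts were fitted in R 4.3.3 with edgeR 4.0.16: filterByExpr defaults (minimum count 10, minimum total 15), TMM factors and the quasi-likelihood test of genotype, adjusted by Benjamini-Hochberg over all 12940 tested genes. SEs are the log2 fold change divided by the square root of F. The p-values measure the spread between libraries of pooled mice, not between single mice. Coordinates and lengths come from GENCODE M21, which matched 99.3% of gene identifiers without version. Of the 50-base stretches of the 10 genes, 0% occurred in transcripts of other genes. The code was tested on simulated counts with known fold changes.

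The members and gene lists were chosen with earlier results of these data known. Genes named beside the 10 members and Zeb1 are those of each list past the threshold, or else with the smallest p, and the 3 with the highest mean CPM, of which some are not reported here. The 6 genes most alike in pattern were chosen by Pearson's r. Per1, Klf4, Fosl1, Csf1r, Gata6, Icam2, Vegfa, Il1b, Tnf, Hspa1a and Hspa1b are named in addition, after their values were seen. The same holds for the genes overlapping Junb, Jun, Jund and Nab2. Alternatives were RLE factors, other filters, DESeq2 1.42.0, limma-voom (limma 3.58.1), a replicate block, a structural RNA term and leaving out each library.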

Additional observations from a re-analysis of the deposited data

How the results depend on the processing

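The count of changed genes depended on the setting. Against 76 of all tested genes, 522 passed without a low-count filter, 351 by DESeq2, 31 after adjustment for the structural RNA split, and 5 to 127 with 1 library left out. Of the 10 immediate-early genes, against 0, there were 3 without a low-count filter (Egr2, Junb and Jund), 1 by DESeq2 (Junb), 0 after adjustment for that split, and 0 to 1 with 1 library left out. Of the other AP-1, immediate-early, upstream, feedback, target and heat shock genes, 3 of 98 tested passed in the main fit. There were 8 of 104 without a low-count filter, 6 of 94 by DESeq2, 0 with the structural RNA split, and 0 to 4 with 1 library left out. Over all tested genes the share was 0.587% in the main fit, 2.47% without a low-count filter and 2.94% by DESeq2. The causes were not tested.

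No label says that replicate numbers pair the libraries. The correlation of same-numbered deviations from the group means was −0.369, −0.0688 and −0.293. With 3 libraries per genotype, these values cannot show whether same-numbered libraries were handled together. With the replicate number as a block 15 genes passed, 1 of them on the other lists, and 0 of the 10.

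Nab2, Mmp9 and Spp1 kept their sign in all 14 fits. Among genes short of the threshold, Fos was at 0.00063 with RLE factors, 0.00021 by DESeq2, 0.0185 without a low-count filter, 0.27 with the structural RNA split and −0.29 to 0.22 with 1 library left out. Atf3 was at 0.53 and Ier2 at 0.022 with the split. With 1 library left out, Atf3 ran from −0.74 to 0.23, Fosb from −0.31 to 0.68 and Egr1 from −0.067 to 0.12. Jun, Junb, Jund, Fosl2 and Egr2 stayed below 0 in all 14 fits. With 3 libraries per genotype precision is limited, and the 95% confidence interval of Fosb ran from 0.629-fold to 2.46-fold.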
